A study of Mus musculus with 42 samples.

Results

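The kinases that phosphorylate the α subunit of eIF2, the regulatory subunits that bring a phosphatase back to it, and the α subunit itself were followed at the mRNA level through arsenite stress, recovery, TIA1 binding and muscle cell differentiation. They are 7 genes, chosen by symbol: Eif2ak1, Eif2ak2, Eif2ak3, Eif2ak4, Ppp1r15a, Ppp1r15b and Eif2s1. All 7 were among the 12347 genes of the RNA-seq files and among the 14469 genes with a polyadenylation site (PAS) in the 3′READS files, where they held 51 of 63791 PASs. A PAS was given to a gene when it lay on the gene's strand within its span or up to 4000 nt downstream, before the next gene.

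The data came from 42 libraries of 2 mouse cell lines, for which the labels give the strain C57BL/6 and no genetic change. The study's text names ATCC as the source of both lines but no strain, so the strain label was not checked. NIH3T3, a line of embryonic fibroblasts, was either non-treated (NT), stressed by sodium arsenite at 250 µM during 1 h (AS), or given 4, 8, 12 or 24 h without arsenite after that stress (recovery, RC4 to RC24). Total RNA gave 3 NT and 3 AS libraries and 1 library for each recovery time. Newly made RNA, labelled with 50 µM 4-thiouridine (4sU) for 1 h, and the unlabelled flow-through RNA (Ft) gave 1 library each for NT at 0 h, AS, NT at 4 h and RC4. RNA bound by an antibody to TIA1, an RNA-binding protein of stress granules, and its cytoplasmic input gave 2 libraries each for NT and AS. C2C12, a line of myoblasts, was used while proliferating (MB) and after differentiation in horse serum medium (MT), with 1 cytoplasmic library each for NT at 0 h, AS, NT at 4 h and RC4, and 2 total RNA libraries each without arsenite. The 4 RNA-seq libraries were NIH3T3 cells under NT at 0 h, AS, NT at 4 h and RC4. Each cell type was a single line. The study describes replicates of total RNA, of RIP and of C2C12 total RNA as biological, without saying how the cultures were kept apart. The p-values rest on the spread between libraries. In the fits over pairs, that spread includes differences in response between cell types and RNA fractions, since MB and MT cytoplasm gave 1 pair each.

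Phosphorylation of eIF2α slows the start of translation across the cell and at the same time favours a few mRNAs such as that of Atf4, a response known as the integrated stress response. Each kinase senses another signal: Eif2ak1 encodes HRI, which responds to heme shortage and to arsenite, Eif2ak2 encodes PKR, which binds double-stranded RNA, Eif2ak3 encodes PERK of the endoplasmic reticulum, and Eif2ak4 encodes GCN2, which senses uncharged tRNA. Ppp1r15a encodes GADD34, the inducible subunit that directs protein phosphatase 1 to eIF2α, and Ppp1r15b encodes CReP, its constitutive counterpart. Eif2s1 encodes eIF2α, the shared substrate.

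The sequences below show how differently the 7 transcripts end, since 3′READS counts each transcript at this point. Each is the 30 bases up to and including the most used cleavage position of the gene in NCBIM37 (mm9), 5′ to 3′ on the gene's strand, with the poly(A) signal in capitals.
Eif2ak1, chr5:144663557-144663586, plus strand: aataaAATAAActccatagatgatatggta
Eif2ak2, chr17:79253845-79253874, minus strand: tcATTAAAcaccaagcaggactgctaaaaa
Eif2ak3, chr6:70855203-70855232, plus strand: taaatgatttAATAAAaaaattttaaatta
Eif2ak4, chr2:118300939-118300968, plus strand: cctttttgatatAATAAAtgttttcataga
Eif2s1, chr12:79986279-79986308, plus strand: aaacatcaAATAAAtttctgggatatttaa
Ppp1r15a, chr7:52778287-52778316, minus strand: aAATAAAgccttttaatttgtagtgataaa
Ppp1r15b, chr1:135036331-135036360, plus strand: attgtAATAAAtatatttgcaattattaaa

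All 7 lie in last exons, and each holds AATAAA or ATTAAA, which is found in 73.83% of the most used PASs of all genes. These sites took 99.77% of the reads of Ppp1r15a, 82.1% of Eif2ak1, 79.87% of Eif2ak4, 78.03% of Ppp1r15b, 74.86% of Eif2s1, 61.08% of Eif2ak2 and 58.05% of Eif2ak3 over the 38 3′READS libraries. Ppp1r15a thus had a single end in practice, while the other transcripts ended at several sites.

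The stretch before that end differed too. The 3′UTR was taken from the stop codon to the most used PAS in the last exon or downstream of it. That of Ppp1r15a was 76 nt, against a median of 719 nt over 11709 genes, and 46.05% of it was U, against a median of 28.94%. It held 4 copies of AUUUA, the core of AU-rich elements, or 52.63 per kb, a percentile rank that rounds to 100.0 among these genes. The 3′UTR of Ppp1r15b was 2896 nt long, with 36 copies of UUUUU, overlapping ones included, or 12.43 per kb. That of Eif2ak3 held more per length, at 17.89 per kb, and the median of all genes was 3.39 per kb. Runs of U are the kind of sequence that TIA1 is known to bind. The most U-rich 30-base windows of 4 of the 3′UTRs are shown here, with runs of at least 3 T in capitals.
Ppp1r15a, chr7:52778324-52778353: gTTTcctattaTTTaTTTaTTTaTTTaTTT
Ppp1r15b, chr1:135034409-135034438: tgTTTTggTTTgTTTgtgTTTgtgTTTTTT
Eif2ak4, chr2:118300921-118300950: TTTTcatgtataaaTTTaccTTTTTgatat
Eif2s1, chr12:79986003-79986032: aataTTTTTaTTTccaagtaTTTaagtatt

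Among the RefSeq promoters (GRCm38.p6, 250 bases before to 50 after the start), TGACGTCA, the cAMP response element, was found on either strand in 588 of 32851 or 1.79%. Ppp1r15a was the only one of the 7 genes that held it, 12 bases before the start, in capitals in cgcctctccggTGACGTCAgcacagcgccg. TGACGT, which is part of it, was in 7.51% of promoters and, besides Ppp1r15a, in that of Eif2ak4. TGATGNAA (3.97% of promoters) and TGAGTCA (5.20%) were in none of the 7 windows.

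The 3′READS libraries held 1048335 to 6974664 PAS reads and the RNA-seq libraries 17093529 to 25151556 counts. The smallest count listed for a PAS was 5 reads, so a gene without a listed read may still have had some. The treatment marker Hmox1, heme oxygenase, rose by 2.88 ± 0.26 (log2, SE) in AS vs. NT over 7 pairs of libraries (edgeR adjusted p = 2.65e-05). None of the 5 myoblast markers was listed in any of the 26 NIH3T3 3′READS libraries, whereas all 5 fibroblast markers were in every one. In MT, 6 of 7 myotube markers were listed in every library, with a summed level of 12630 to 24990 CPM against 81.1 to 338.3 CPM in MB. Pax7 and Cdh15, both myoblast markers, were listed in no C2C12 library. The summed level of the myoblast markers was 85.8 to 171.2 CPM in MB and higher in MT, at 192.9 to 801.5 CPM. These markers thus set C2C12 apart from NIH3T3 but do not mark MB against MT.

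In untreated NIH3T3 cells, Eif2s1 was by far the most abundant of the 7 mRNAs in RNA-seq per length of coding sequence. It stood at 246.5 CPM per kb in NT at 0 h and 250.3 in NT at 4 h. Eif2ak1 followed at 73.8 and 77.4 CPM per kb, and was the most abundant of the 4 kinases. Ppp1r15b (40.9 and 33.7) and Eif2ak2 (38.4 and 47.4) overlapped each other, as did Ppp1r15a (29.3 and 20.4) and Eif2ak4 (27.5 and 27.2), so neither order exceeds the difference between the untreated libraries. Eif2ak3 was lowest, at 10.7 and 12.5 CPM per kb. In 3′READS, Eif2ak3 was listed in 19 of 38 libraries with 348 reads in all, and it was missing from all 6 libraries of the total RNA time course and from all 4 C2C12 total RNA libraries. It is therefore described mainly by RNA-seq.

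Ppp1r15a, the inducible phosphatase subunit, was higher in AS than in NT in every kind of RNA measured. In total RNA it stood at 33.8, 9.64 and 17.6 CPM in NT (replicates 1, 2 and 4) and at 73.8, 47.9 and 127.1 CPM in AS, or 20.4 ± 12.3 (SD, n = 3) against 83.0 ± 40.4 (SD, n = 3). All 3 AS libraries lay above all 3 NT libraries. The difference was 2.02 ± 0.64 (log2, SE), but it did not pass the test over all genes (edgeR quasi-likelihood, adjusted p = 1). That test called 0% of 9281 genes, with 19 at an unadjusted p under 0.05, and DESeq2 called 0 as well. With the replicate number as a block, 6 genes were called, and Ppp1r15a was at 2.00 ± 0.32 with an adjusted p of 0.169.

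Adding the cytoplasmic libraries gave 7 pairs of NT and AS libraries, from total RNA, RIP input, MB and MT, with the pair as a block. The input libraries held 12.6 and 14.7 CPM of Ppp1r15a in NT and 56.4 and 82.8 in AS. MB cytoplasm went from 12.1 to 39.7 CPM and MT cytoplasm from 11.7 to 71.8 CPM. The AS library was higher in 7 of 7 pairs, by 2.18- to 7.22-fold, and over all pairs Ppp1r15a rose by 2.17 ± 0.19 (log2, SE), or 4.49-fold (edgeR adjusted p = 2.65e-05). It was 1 of 135 genes called higher, 1.25% of the 10836 tested, and had the 61st largest change. None of the other 6 genes was called higher, and none of the 7 was called lower, as 0.471% of genes were.

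**Figure D1:**
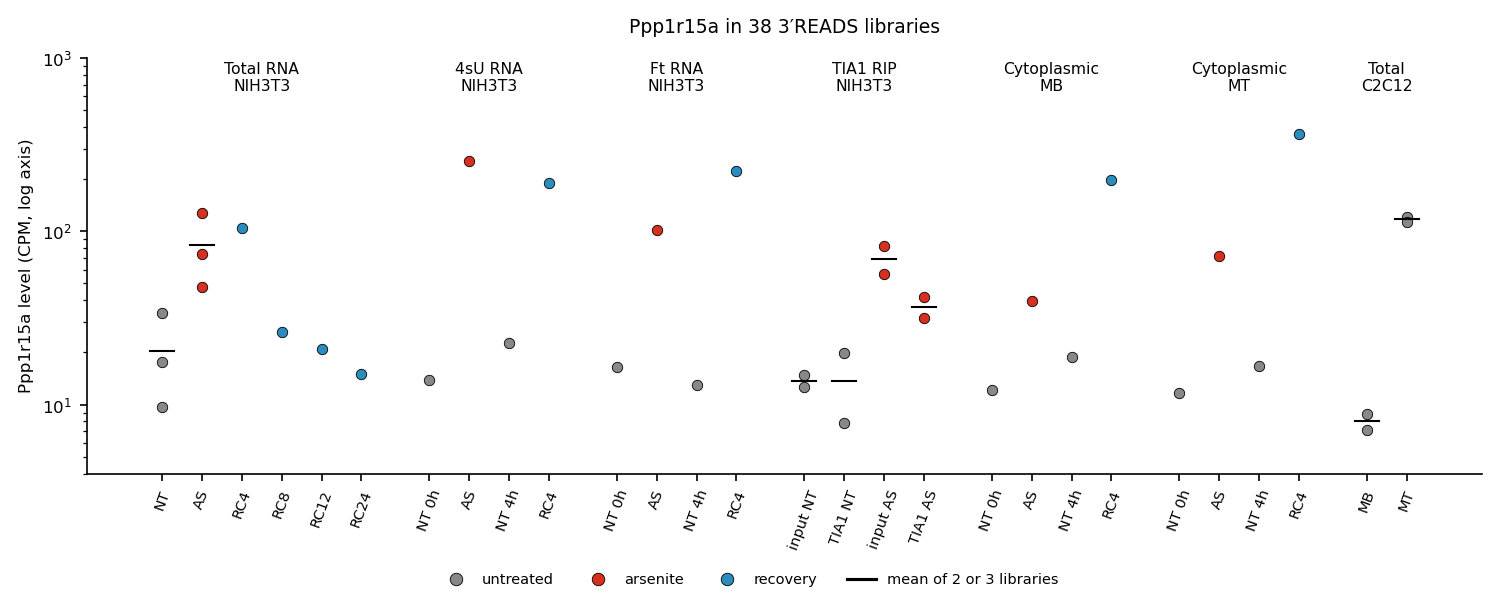
Level of Ppp1r15a in each of the 38 3′READS libraries (CPM, log axis), grouped by RNA and cells. Points are libraries coloured by treatment and bars are means of 2 or 3 libraries. AS libraries lie above their NT libraries in every set, and MT total RNA, without arsenite, lies at 112.9 and 121.5 CPM. Sets were normalized separately.

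None of the kinases, nor the substrate, passed the test at 1 h. Eif2ak1 was at 106.3, 210.9 and 91.8 CPM in total RNA NT and at 105.0, 197.5 and 87.6 CPM in AS, and its difference over 7 pairs was 0.05 ± 0.13 (log2, SE; edgeR adjusted p = 0.950). Replicates differed more from each other than NT from AS. Eif2s1 differed by -0.17 ± 0.16 (adjusted p = 0.775) and Ppp1r15b by 0.07 ± 0.26 (adjusted p = 0.974). Eif2ak2 was lower in 6 of 7 pairs, with a difference of -0.36 ± 0.23 (adjusted p = 0.603). Eif2ak4 was lower in 7 of 7 pairs, at 0.325 to 0.893 of NT. The lowest ratio, in MT, rests on 5 reads in AS and 12 in NT, and that in MB on 13 and 11. The difference of Eif2ak4 was -0.55 ± 0.18, and it too missed the threshold (adjusted p = 0.171).

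RNA-seq gave the AS response of the coding sequences in 1 library per condition, so these are ratios with no test. The intervals here and for the other single libraries are exact binomial 95% intervals that cover counting error only, and a gene is counted as past 2-fold only with at least 20 reads in the 2 libraries. Ppp1r15a went from 57.8 to 491.4 CPM, a ratio of 8.50 (8.02 to 9.01), and was the 1 gene of the 7 past 2-fold, against 4.27% of all genes. Eif2ak3 followed, from 35.9 to 52.0 CPM, at 1.45 (1.33 to 1.59), higher than 87.7% of genes. Eif2ak2 was at 0.779 (0.719 to 0.844) and Eif2ak4 at 0.857 (0.814 to 0.902). Eif2ak1 (1.02), Ppp1r15b (0.988) and Eif2s1 (0.904) lay closer to NT. For scale, Ppp1r15a differed by 0.696-fold and Eif2ak2 by 1.23-fold between the 2 untreated libraries.

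At RC4 the level of Ppp1r15a was again above NT. The RNA-seq library held 1271 CPM against 40.2 CPM in NT at 4 h, a ratio of 31.6 (29.4 to 34.0). In MB cytoplasm it went from 18.9 to 198.5 CPM, or 10.5-fold (7.16 to 15.9), and in MT cytoplasm from 16.8 to 362.8 CPM, or 21.6-fold (15.8 to 30.2). These ratios exceed those at 1 h in the same cells, which were 3.29 (1.97 to 5.79) in MB and 6.12 (4.02 to 9.68) in MT, with no interval overlapping its counterpart. In total RNA of NIH3T3, by contrast, RC4 (105.0 CPM) stood below AS of the same replicate (127.1 CPM), with ratios to their shared NT library of 5.96 (3.86 to 9.58) and 7.22 (4.65 to 11.7), whose intervals overlap. The 3 pairs of RC4 and NT libraries of 3′READS were NIH3T3 total RNA (NT at 0 h), MB cytoplasm and MT cytoplasm (both NT at 4 h), none with replicates at RC4. The p-values over them thus rest on the spread of the response across cell types and RNA fractions. Over these pairs Ppp1r15a rose by 3.53 ± 0.39 (log2, SE; edgeR adjusted p = 0.0139), against 0.664% of genes called higher. It was the only one called of the 6 tested, none being lower where 0.0316% of genes were. Without the MB pair no gene was called (none by edgeR at an adjusted p under 0.05), and Ppp1r15a was at 3.60 ± 0.54 with an adjusted p of 0.1605.

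The share of all genes past 2-fold higher was 16.0% in RNA-seq at RC4, 12.0% in MB and 8.23% in MT at RC4, 11.3% in total RNA at RC4, and 5.46% in MB, 5.60% in MT and 2.44% in total RNA at AS. Ppp1r15a was past it in each, and Ppp1r15b in MB at RC4 as well. The scaling also mattered at RC4: taking the library total in place of TMM moved the median of all genes by -0.74 (log2) in RNA-seq and by -0.32 in MB, -0.15 in MT and -0.22 in total RNA. The RNA-seq ratio of Ppp1r15a was then 18.97.

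The longer recovery times were measured once each in total RNA. Ppp1r15a stood at 26.4 CPM at RC8, 21.1 at RC12 and 15.0 at RC24, against 17.6 in NT. The ratios were 1.50 (0.883 to 2.59), 1.20 (0.691 to 2.10) and 0.851 (0.415 to 1.69), all with intervals that include 1. At this depth no difference from NT was detectable from RC8 on.

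Eif2ak2 was lower at RC4 than in NT in NIH3T3 cells, with 1 library on each side. RNA-seq gave 31.3 CPM against 73.2, a ratio of 0.427 (0.386 to 0.472), or 0.257 with the library total as the scale. Total RNA gave 7.41 CPM against 22.8, a ratio of 0.325 (0.148 to 0.665) on 11 and 31 reads, and Ft RNA 17.2 against 44.9, a ratio of 0.383 (0.262 to 0.549). In each of these 3, Eif2ak2 was the 1 gene of the 7 past 2-fold lower, where 16.6%, 9.80% and 14.7% of all genes were. Newly made Eif2ak2 RNA was at 56.6 CPM against 62.5, a ratio of 0.904 (0.745 to 1.10). In C2C12 cytoplasm the ratio to NT at 4 h was 1.57 (0.557 to 4.79) in MB on 18 reads and 1.81 (1.07 to 3.14) in MT. In MB the RC4 library, at 7.18 CPM, lay between NT at 4 h (4.56 CPM) and NT at 0 h (12.7 CPM). In total RNA the level was 36.6 CPM at RC8, with a ratio of 1.61 (1.02 to 2.58).

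Ppp1r15b, the constitutive phosphatase subunit, was higher at RC4 in 5 of 6 measurements. Its ratio was 1.76 (1.65 to 1.89) in RNA-seq, 1.64 (1.13 to 2.40) in total RNA, 1.56 (1.07 to 2.28) in Ft RNA, 2.70 (1.39 to 5.55) in MB and 1.75 (1.10 to 2.84) in MT. In newly made RNA it was 1.02 (0.881 to 1.18). Over the 3 pairs of RC4 and NT libraries the difference was 0.96 ± 0.34 (log2, SE) and did not pass the test (edgeR adjusted p = 0.274). With the library total as the scale, the RNA-seq ratio was 1.06.

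Eif2s1 and Eif2ak1 did not differ in the same direction everywhere at RC4. Eif2s1 was at 1.40 (1.34 to 1.45) in RNA-seq, 1.41 (1.18 to 1.68) in Ft RNA, 1.23 (0.762 to 2.01) in total RNA and 1.05 (0.870 to 1.27) in newly made RNA, but at 0.673 (0.533 to 0.847) in MB and 0.766 (0.602 to 0.971) in MT. Eif2ak1 was at 1.75 (1.52 to 2.02) in newly made RNA, 1.35 (1.16 to 1.56) in Ft RNA, 1.23 (1.17 to 1.30) in RNA-seq and 1.37 (1.15 to 1.63) in MT, but at 0.976 (0.759 to 1.26) in total RNA and 0.747 (0.563 to 0.988) in MB. With the library total, the ratios of Eif2s1 turned to 0.837 in RNA-seq and 0.825 in newly made RNA and that in Ft was 1.04, while the RNA-seq ratio of Eif2ak1 turned to 0.739. Against NT at 0 h, Eif2s1 at RC4 was lower in newly made RNA, at 63.6 CPM against 85.4, and in Ft RNA, at 110.6 against 115.4. At 1 h, Eif2s1 was lower than NT in MT cytoplasm, with 28.9 CPM against 65.8, a ratio of 0.440 (0.330 to 0.584). It was the 1 gene of the 7 past 2-fold lower there, as were 4.48% of all genes, while in MB it was at 1.06 (0.854 to 1.32). In untreated MB, Eif2ak2 differed between the 2 NT libraries, with 4.56 CPM at 4 h against 12.7 at 0 h (7 and 19 reads), the 1 gene of the 7 past 2-fold lower against 6.09% of all genes.

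**Figure D2:**
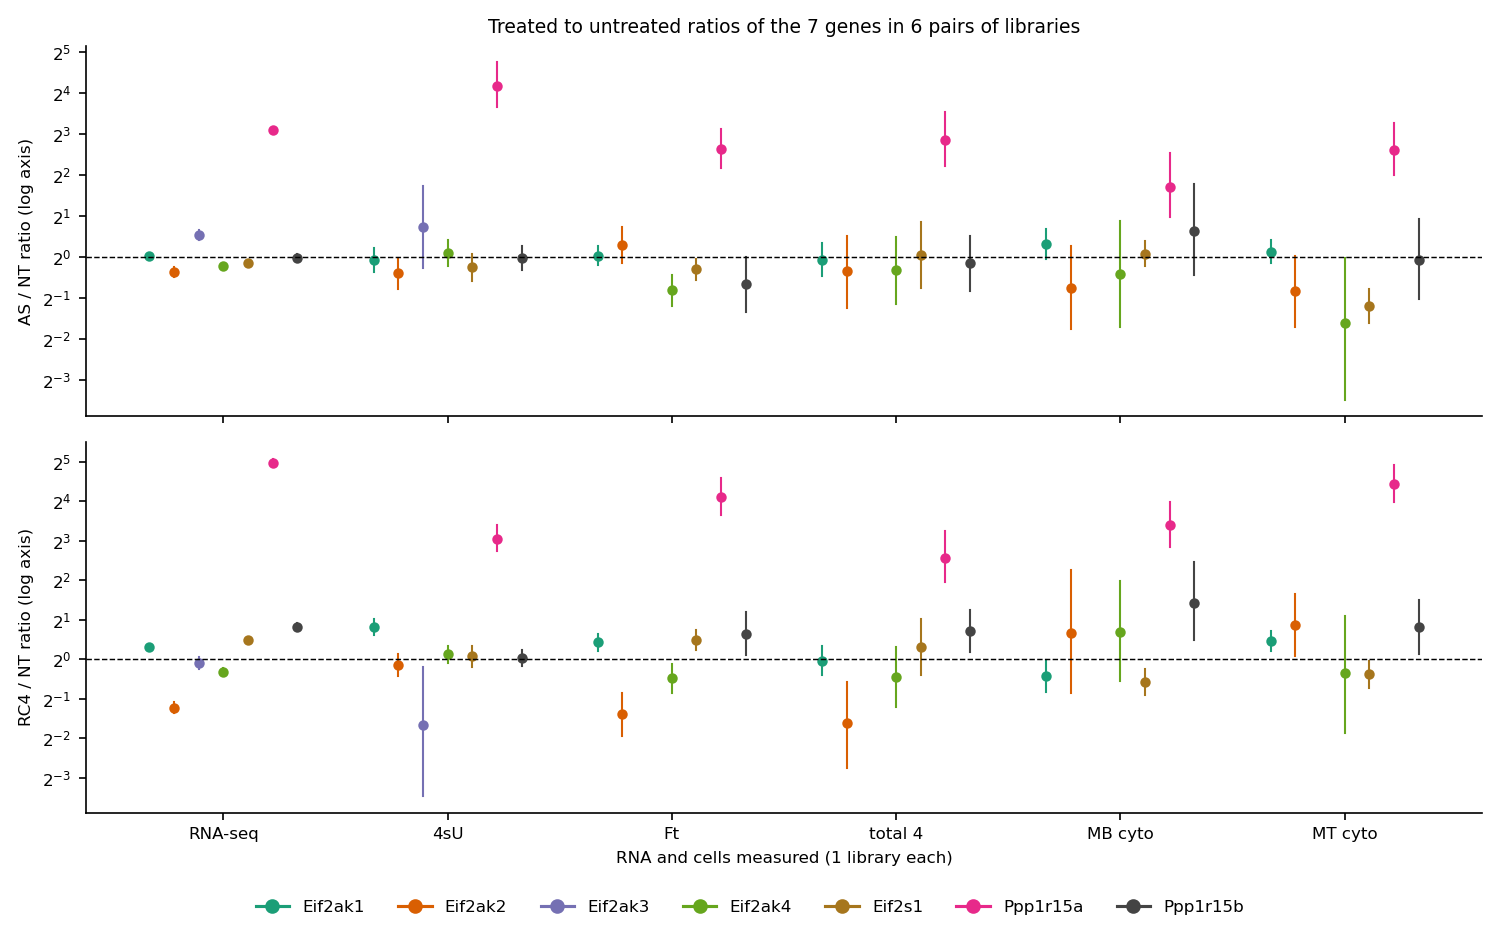
Ratios of treated to untreated libraries for the 7 genes (log axis, bars are exact 95% intervals for counting error) at AS (top) and RC4 (bottom) in 6 pairs of libraries. Ppp1r15a is the highest point in every column. Eif2ak2 at RC4 lies below 1 in the 4 NIH3T3 columns and above 1 in both C2C12 columns, with an interval that includes 1 in newly made RNA and in MB. Points are left out where a library lists no read.

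The 4sU and Ft libraries were enriched for RNA made within the labelled hour and for older RNA, and either may hold some of the other. Newly made Ppp1r15a RNA was at 13.9 and 22.8 CPM in NT at 0 and 4 h, 253.5 in AS and 190.1 in RC4. That is 18.2 times NT (12.7 to 26.9) in AS and 8.33 times (6.66 to 10.5) in RC4. In Ft it was at 16.5 and 12.9 CPM in NT, 101.8 in AS and 222.2 in RC4, or 6.18 times (4.50 to 8.65) and 17.2 times (12.5 to 24.2). The 4sU fraction was thus highest relative to NT at 1 h and the Ft fraction at RC4, and in both fractions the intervals of AS and RC4 did not overlap. Label and arsenite were given in the same hour in AS, so Ft is not read here as older RNA alone. Ppp1r15a was past 2-fold higher in all 4 comparisons, with 6.08% of all genes past it in 4sU and 4.98% in Ft at AS, and 15.0% and 14.8% at RC4.

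Among the other members, newly made Eif2ak1 RNA was at 1.75 (1.52 to 2.02) at RC4, above 81.1% of genes, and at 0.955 (0.781 to 1.17) at AS. Eif2ak4 was at 1.07 in AS and 1.09 in RC4 with intervals that include 1, and in Ft it was at 0.568 (0.437 to 0.733) in AS and 0.717 (0.557 to 0.918) in RC4. Eif2ak3 had 5 reads against 18 in 4sU at RC4, a ratio of 0.314 (0.0910 to 0.877), and was the 1 gene of the 7 past 2-fold lower, as were 13.3% of all genes.

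The log2 ratio of Ft to 4sU, taken relative to the median of all genes, sets the unlabelled against the labelled pool of an mRNA. Ppp1r15b was the lowest of the genes with a value in all 4 conditions, at -2.06 in NT at 0 h, -2.29 in NT at 4 h, -2.72 in AS and -1.58 in RC4. Eif2ak3 had no value in AS and RC4, where Ft listed no read beside 22 and 5 reads in 4sU. Its place in these conditions is therefore not known. The value of Ppp1r15b in NT at 0 h is lower than that of all but 6.24% of 9491 genes. Eif2s1 was above the median in all 4, at 0.63, 0.62, 0.54 and 1.14. Eif2ak1 was also above it, at 0.27, 0.70, 0.35 and 0.43. Ppp1r15a was at 0.43 and -0.57 in the 2 NT conditions, at -1.14 in AS and at 0.57 in RC4. Its AS value lies below both NT values and its RC4 value lies above both. Eif2ak4 was at -0.08 and -0.57 in NT, and at -1.01 in AS and -1.06 in RC4. The study's methods adjust this ratio for the number of uridines. With such a regression over genes, an alternative chosen here after seeing the data, Ppp1r15b was at -1.47, -1.68, -2.07 and -1.04, and at RC4 Eif2ak2 was then the lowest at -1.14 (-1.36 without the adjustment). Eif2ak4 was then at 0.32 and -0.17 in NT, -0.57 in AS and -0.72 in RC4, its first value having turned above the median. Eif2ak1 was at 0.59, 1.02, 0.70 and 0.69, and Ppp1r15a at 0.23 and -0.82 in NT, -1.34 in AS and 0.29 in RC4.

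**Figure D3:**
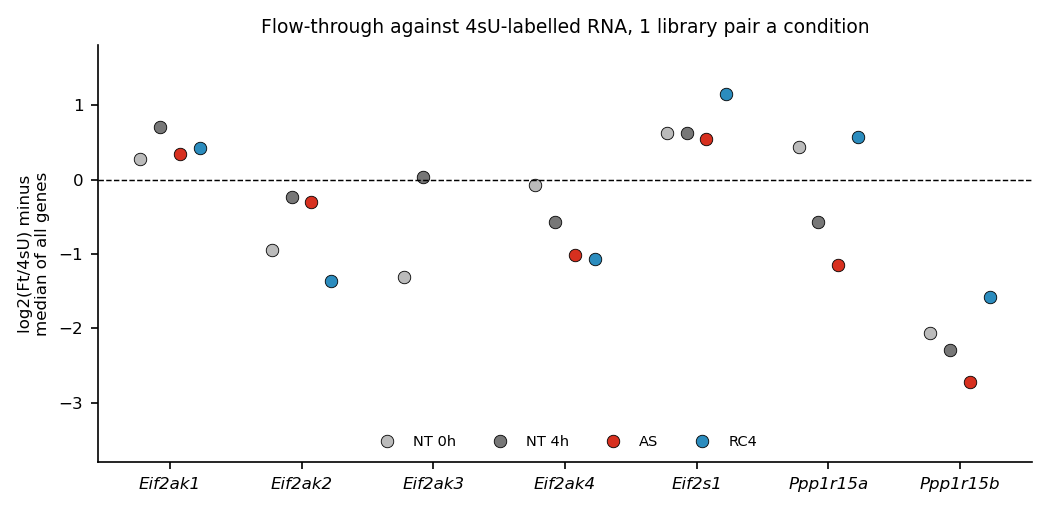
Log2 ratio of Ft to 4sU level minus the median of all genes for each gene, 1 library pair a condition (NT at 0 h, NT at 4 h, AS and RC4). Ppp1r15b is the lowest point in all 4 conditions, down to -2.72 in AS, on this scale without adjustment for uridines. Eif2ak3 has no point in AS and RC4, where Ft listed no read, and at most 18 reads in a library behind its others.

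TIA1 RIP asked which of these mRNAs were bound. Eif2ak4 was enriched and Eif2s1 was depleted. Eif2ak4 stood at 65.2 and 79.4 CPM in NT input and 137.9 and 231.1 in NT TIA1, and at 26.3 and 70.9 in AS input and 54.5 and 182.9 in AS TIA1. The TIA1 library was 2.12, 2.91, 2.07 and 2.58 times its input in the 4 cultures (NT 1, NT 2, AS 1, AS 2). Within cultures this was 1.31 ± 0.33 (log2, SE; edgeR adjusted p = 0.0151) in NT and 1.21 ± 0.34 (adjusted p = 0.0267) in AS.

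Eif2s1 stood at 111.7 and 118.4 CPM in NT input and 55.9 and 41.6 in NT TIA1, and at 90.6 and 145.5 in AS input and 40.7 and 41.1 in AS TIA1. Every TIA1 library lay below every input library. The ratios were 0.501, 0.351, 0.449 and 0.283, or -1.26 ± 0.36 in NT (adjusted p = 0.0275) and -1.49 ± 0.36 in AS (adjusted p = 0.0137). Each call is thus 1 of the 7 genes higher, where 8.77% of all genes were in NT and 9.39% in AS, and 1 of the 7 lower, where 9.38% were in NT and 7.61% in AS. Without the culture as a block none of the 7 was called. Eif2ak4 was then at 1.35 and 1.29 (adjusted p = 0.268 and 0.318) and Eif2s1 at -1.24 and -1.53 (0.1272 and 0.08695). Leaving out a culture leaves 1 in that condition, whose spread is then taken from the other condition. Without AS replicate 1 or 2 both AS calls were lost, with Eif2ak4 at 1.37 and 1.05 and Eif2s1 at -1.82 and -1.16. Without NT replicate 2 both NT calls were lost, at 1.10 and -0.98.

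The other members were not called. Eif2ak1 was below its input in 4 of 4 cultures, at 0.627, 0.466, 0.723 and 0.648 (adjusted p = 0.0642 in NT and 0.268 in AS). Ppp1r15b, with the longest 3′UTR of the 7 and 36 copies of UUUUU, was at 2.85, 1.04, 2.71 and 4.85, and the 4 values spread too widely for a call (adjusted p = 0.547 and 0.150). The 3′UTR of Eif2ak4, which was called higher, was short, at 172 nt with 1 copy of UUUUU. Ppp1r15a was at 0.618, 1.34, 0.563 and 0.505 (adjusted p = 0.911 and 0.213). Eif2ak3 and Eif2ak2 rested on few reads. Their ratios ran from 0.749 to 6.49 and from 0.556 to 2.40, with values on both sides of 1 in each case.

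Whether binding differed between AS and NT was tested in the same fit. None of the 7 was called, where 0.0102% of 9813 genes (1 gene) were, with 392 genes at an unadjusted p under 0.05 and 24 called by DESeq2, none of the 7 among them. The differences ranged from -0.80 ± 0.67 for Ppp1r15a to 1.01 ± 1.10 for Ppp1r15b (log2, SE). For Eif2ak4 the difference was -0.10 ± 0.47 and for Eif2s1 -0.24 ± 0.50, both smaller than their SE.

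In C2C12 total RNA, Ppp1r15a was higher after differentiation without any arsenite. It stood at 7.15 and 8.86 CPM in MB and 121.5 and 112.9 CPM in MT, 8.01 ± 1.21 against 117.2 ± 6.08 (SD, n = 2 each). The difference was 3.85 ± 0.18 (log2, SE), or 14.4-fold (edgeR adjusted p = 1.43e-10). It was the only one of the 7 higher in MT, where 32.2% of the 10304 genes tested were.

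In all, 3 of the 7 were lower in MT, where 29.4% of genes were. Eif2ak4 was at 27.9 and 27.9 CPM in MB and 14.4 and 13.0 in MT, a difference of -1.03 ± 0.21 (adjusted p = 5.51e-04). Eif2ak1 was at 147.8 and 118.6 CPM in MB and 88.9 and 104.2 in MT (-0.46 ± 0.13, adjusted p = 0.00806). Eif2s1 was at 109.8 and 91.5 CPM in MB and 80.0 and 74.5 in MT (-0.38 ± 0.13, adjusted p = 0.0205). In all 3 the MT libraries lay below the MB libraries. In bulk RNA, fewer cells of a type and less RNA per cell cannot be told apart. The call of Eif2s1 was lost with DESeq2 (adjusted p = 0.124), and those of Eif2ak1 and Eif2s1 were lost without MB replicate 2 (0.0612 and 0.147) or without MT replicate 2 (0.1264 and 0.06853). Without MT replicate 3 that of Eif2s1 was lost (0.158). Eif2ak2 (-0.17 ± 0.30) and Ppp1r15b (-0.16 ± 0.29) were not called.

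The cytoplasmic libraries of untreated C2C12 cells did not show the same difference for Ppp1r15a. It was at 12.1 CPM in MB and 11.7 in MT at 0 h, and at 18.9 and 16.8 at 4 h. The MT to MB ratios were 0.973 (0.510 to 1.89) and 0.889 (0.541 to 1.48) in cytoplasm, against 17.0 (11.1 to 27.4) and 12.7 (8.98 to 18.6) in total RNA for replicates 2 and 3. The intervals of the 2 kinds of library do not overlap, but cultures, RNA fraction and library set differed together and cannot be told apart. Ddit3, which encodes the stress transcription factor CHOP, had the same pattern: 90.3 and 97.0 CPM in MB and 1033 and 1053 in MT total RNA, but 170.3 and 143.5 in MB and 218.9 and 212.5 in MT cytoplasm at 0 and 4 h. Eif2ak1 was above 1 in cytoplasm, at 1.32 (1.02 to 1.71) and 1.20 (0.963 to 1.51), and below 1 in total RNA, at 0.601 (0.517 to 0.698) and 0.878 (0.765 to 1.01). Eif2s1 was below 1 in both, at 0.721 and 0.562 in cytoplasm and 0.728 and 0.814 in total RNA. Of 5 fibroblast markers, 4 were listed in every C2C12 library and Thy1 in none, with a summed level of 6086 to 14260 CPM in MB and 4707 to 10240 CPM in MT. Col1a1 was at 18.3 to 90.5 CPM in MB and 535.4 to 2056 CPM in MT, whereas Vim was at 5886 to 13560 CPM in MB and 1752 to 4512 CPM in MT. The part of these markers in the results was not tested.

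**Figure D4:**
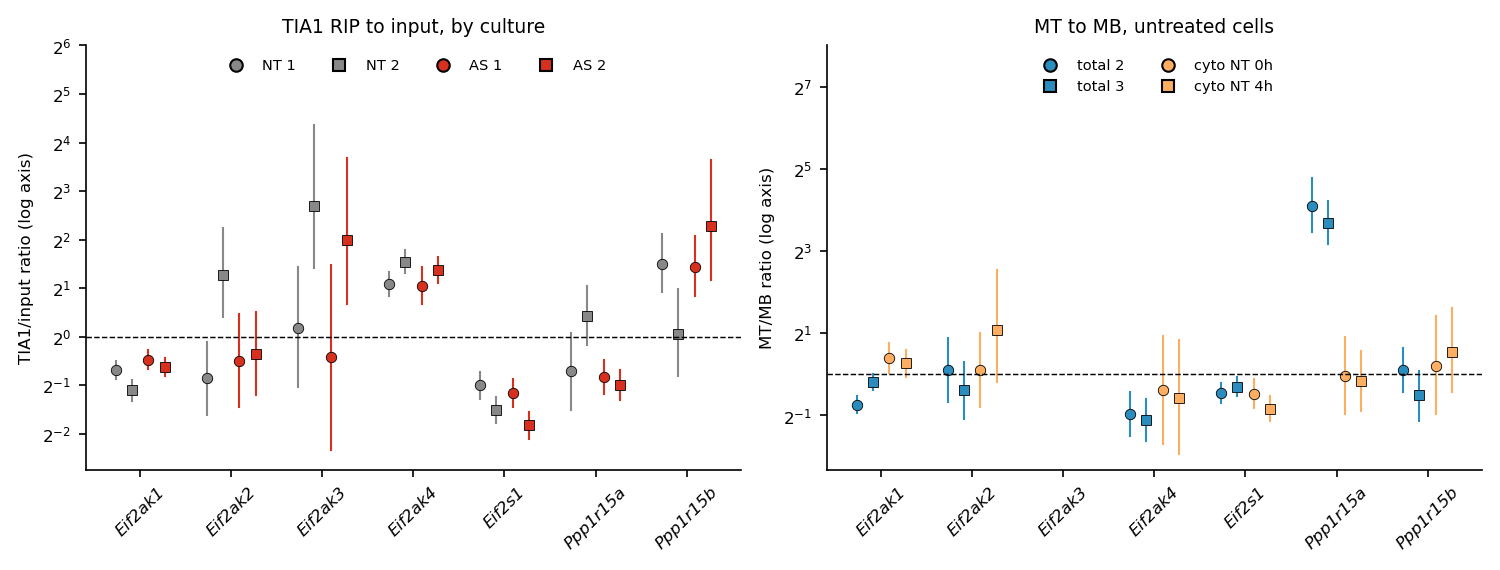
Left, ratio of TIA1 to input in the 4 cultures for each gene, and right, ratio of MT to MB in untreated C2C12 total RNA (replicates 2 and 3) and cytoplasmic RNA (NT at 0 and 4 h). Axes are log scales and bars are exact 95% intervals for counting error. Eif2ak4 is above 1 and Eif2s1 below 1 in 4 of 4 cultures, and Ppp1r15a is at 12.7 and 17.0 in total RNA but near 1 in cytoplasm.

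The genes also differed in where their transcripts ended. Eif2s1 had 2 main sites in its last exon that lie 208 nt apart, and the distal one ends in the following sequence, with the signal ATTAAA in capitals.
Eif2s1 distal, chr12:79986487-79986516, plus strand: aaatcaATTAAAgatttatgtgcctgttaa

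The distal site took 7.55 to 27.9% of the reads at both sites in all 4sU, Ft, input and C2C12 libraries but that of 4sU AS, where it was not listed beside 111 proximal reads. In total RNA it took 93.5% in NT and 96.1% in AS of replicate 1, 19.2% and 20.0% in replicate 2, and 43.8% and 53.8% in replicate 4. The replicates were far apart and NT and AS of a replicate close together. In TIA1 libraries it was 15.3 and 52.0% in NT and 34.6 and 40.0% in AS, and the input libraries were at 20.7 to 27.9%. In total RNA replicate 1 the shares rest on 107 reads in NT and 129 in AS, so the level of Eif2s1 there rests mostly on another end than elsewhere.

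Eif2ak1 ended at the 3′ border of its annotated span, 1539 nt past its main site, in 16.15% of reads. This end has no poly(A) signal of the searched kinds within 30 bases: ccctgctgtcctttacaggtcaaacagaaa. It took 12.3 and 16.7% of the reads at both sites in MB total RNA and 33.6 and 38.2% in MT total RNA. In untreated cytoplasm it took 11.6 and 16.4% in MB and 25.7 and 28.0% in MT. Every untreated MT library was above every untreated MB library. In MT at RC4 the share was 13.9%.

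Eif2ak4 ended inside intron 19, far upstream of its last exon 39, in a sizeable share of reads. A pair of sites lies there.
Eif2ak4 intron 19, chr2:118268977-118269006, plus strand: tatttgatgAATACAtttccagtatcctca
Eif2ak4 intron 19, chr2:118269246-118269275, plus strand: gtcgttttcAGTAAAatgtctttgggacaa

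They took 11.29% and 5.99% of the reads of Eif2ak4 and were listed in 24 and 23 of 38 libraries. Sites upstream of the last exon together made up 19.2% of its 6561 reads. In total RNA the share was 8.44% in NT and 11.8% in AS of replicate 1, 38.4% and 43.3% in replicate 2, and 14.3% and 31.8% in replicate 4, on 22 to 367 reads. In newly made RNA it was 15.0% and 11.03% in NT, 9.93% in AS and 31.6% in RC4. In C2C12 total RNA it was 22.1% and 21.5% in MB, among 86 and 107 reads, and no such read was listed in either MT library, among 47 and 49 reads. The intron 19 sites held 6 to 17 reads each in MB, and a site is listed only from 5 reads on. MT may therefore have had some such reads. TIA1 libraries had 8.87 to 17.2% and their inputs 18.3 to 59.7%, and in each culture the TIA1 share was below that of its input. Eif2ak3 also ended in introns, in 41.95% of its 348 reads counting all sites upstream of its last exon, which is too few for a comparison. Of these 146 upstream reads, 50 came from TIA1 NT replicate 2 and 37 from TIA1 AS replicate 2, more than from any other library.

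The test of a shift between the 2 main last-exon sites from NT to AS called 0% of 1609 genes. It held none of the 7, since none had more than 5 reads at both of 2 sites in every library. No gene was at an unadjusted p under 0.05 either (edgeR, 0 genes), and DESeq2 was not run on this comparison. Some of 1609 genes would fall under that p without any shift, so the test was conservative and cannot decide whether sites shifted. It had no term for the replicate, although replicate numbers paired the NT and AS libraries. With the replicate as a block it also called 0 genes at an adjusted p under 0.05 (edgeR). By Fisher's exact test on reads, the study reported more genes with shortened than with lengthened 3′UTRs in AS.

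**Figure D5:**
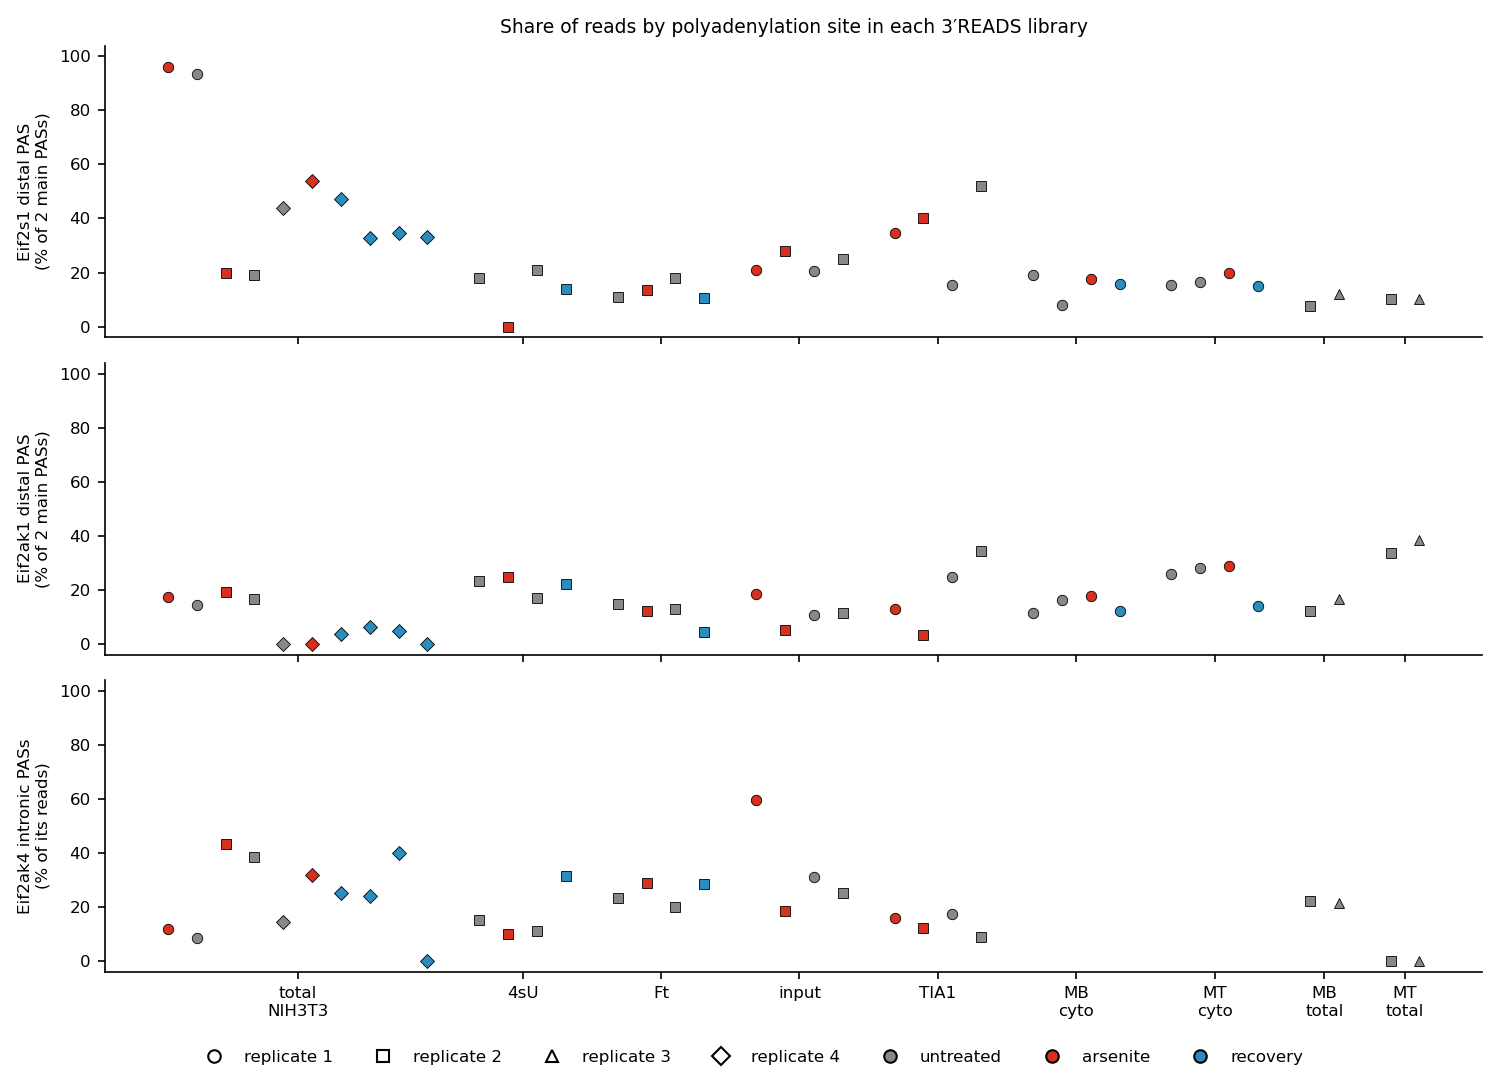
Share of reads at the distal of the 2 main sites of Eif2s1 (top) and Eif2ak1 (middle) and at sites upstream of the last exon of Eif2ak4 (bottom), in percent, in each 3′READS library with at least 20 such reads. Colours mark treatment and shapes the replicate. Total RNA replicate 1 stands at 93.5 and 96.1% for Eif2s1, and MT lies above MB for Eif2ak1 in untreated cells.

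Of 19 other genes of the pathway (subunits of eIF2 and of its exchange factor eIF2B, catalytic subunits of protein phosphatase 1, regulators of the kinases and the transcription factors Atf4, Atf5 and Ddit3), 18 could be tested over the 7 pairs of AS and NT. Ddit3 alone was called, rising by 1.88 ± 0.13 (log2, SE; edgeR adjusted p = 2.49e-06), where 1.25% of all genes were called higher and 0.471% lower. At RC4 none of 17 was called, where 0.664% of all genes were called higher and 0.0316% lower. The median of the 19-gene list was 0.14 over the 7 pairs and 0.17 at RC4, against 0.00 and -0.03 for all genes.

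TIA1 enrichment was called for Impact, an inhibitor of GCN2, at 2.11 ± 0.36 in NT and 2.20 ± 0.35 in AS (adjusted p = 0.00178 and 0.00174), and for Ppp1cb, a catalytic subunit of protein phosphatase 1, at 1.92 ± 0.30 and 2.05 ± 0.30 (adjusted p = 0.00122 and 0.00119). Of 17 tested, 2 were called higher in both conditions, where 8.77% of all genes were in NT and 9.39% in AS. Lower were 3 in NT (Eif2b2, Eif2b4 and Hspa5), against 9.38% of all genes, and 4 in AS (Eif2b2, Eif2b4, Atf4 and Ddit3), against 7.61%. The list's medians were -0.61 and -0.58, against -0.01 and 0.15 for all genes. In MT vs. MB 8 of 18 were higher, against 32.2% of all genes, and 5 lower, against 29.4%. Ddit3 was 11.1-fold higher, Atf5 5.13-fold and Atf4 2.45-fold, the last with an adjusted p of 2.18e-08. The catalytic subunits differed in direction, with Ppp1cb at 0.91 ± 0.09 and Ppp1cc and Ppp1ca at -1.06 ± 0.24 and -0.80 ± 0.09.

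Among 9438 genes, those whose log2(CPM + 1) followed Ppp1r15a most closely over the 38 3′READS libraries were Atf3 (Pearson's r = 0.894), Hspa1b (0.791) and Hmox1 (0.770), all known stress genes. For Eif2ak4 they were Nr2f2 (0.910), Tmem164 (0.896) and Nr1h5 (0.895), for Eif2s1 Pno1 (0.880), Eif4e2 (0.829) and Metap2 (0.815), for Eif2ak3 Ppp2r5e (0.861) and for Ppp1r15b Lrrc8a (0.847). Eif2ak1 had the weakest leading match, Pepd at 0.776. The value of Eif2ak3 rests on few reads, since it was listed in 19 of 38 libraries, at a mean of 2.67 CPM. All 38 libraries were scaled together for these correlations, although the sets differ in RNA and cells. Libraries of a set share their depth and cells, so these values describe the libraries and carry no test.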

How the data were processed

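The authors trimmed reads with cutadapt, aligned 3′READS reads to mm9 with Bowtie2, kept those with untemplated T residues as PAS reads, joined nearby positions and deposited raw counts of reads per PAS. For RNA-seq, mapped with STAR, the authors deposited raw counts per gene over coding sequence. Versions of cutadapt and Bowtie2 are not given in the sources used here. No value was pooled over replicates, and rows whose symbols had been turned into dates were dropped.

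Positions within 24 nt were joined across libraries into 83916 clusters, and assigned to GENCODE M1 genes on NCBIM37 as described above. Of the reads, 87.96 to 95.15% were assigned. Mitochondrial genes were left out. For the levels, the sets of libraries (total, 4sU, Ft, RIP, cytoplasmic, C2C12 total, RNA-seq) were normalized separately, so a level is not comparable across sets. For the correlations, all 3′READS libraries were scaled together. CPM here are TMM-scaled.

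Counts were tested with the quasi-likelihood test of edgeR 4.0.16 (R 4.3.3, TMM, filterByExpr, Benjamini-Hochberg adjusted p under 0.05), with DESeq2 1.42.0 as an alternative. Total RNA AS vs. NT and MT vs. MB had no block. The fits over pairs and the TIA1 fit had the pair or culture as a block. Replicate numbers of NT and AS total RNA paired the libraries: deviations from the group means correlated at r = 0.910, 0.898 and 0.861 across 7678 genes for replicates 1, 2 and 4. TIA1 and input came from 1 lysate each. Where a condition had 1 library, a ratio with an exact binomial 95% interval was given instead. These intervals take reads as independent molecules, and depth sets their width.

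Members are named in every comparison, partners where called, and for each member up to 3 genes by correlation. The 7 members, the lists and the tests were chosen with earlier results of these data known. Alternatives were the scaling, the filter on low counts, the test, the PASs counted, the block, the control library and each library left out. The scripts were tested on simulated data.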

Additional observations from a re-analysis of the deposited data

Results flagged for a closer look

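At RC4 the ratios of 2 genes to an NT library lay on opposite sides of 1 in the 2 cell lines. That library was NT at 0 h in total RNA, which had none at 4 h, and NT at 4 h in the other measurements. Those of Eif2ak2 were below 1 in 4 of 4 NIH3T3 measurements, the nearest being 0.904 in newly made RNA (0.745 to 1.10), and above 1 in both C2C12 measurements, the nearest being 1.57 in MB (0.557 to 4.79), so that both of these intervals include 1. Those of Eif2s1 were above 1 in 4 of 4 NIH3T3 measurements, where the intervals for newly made RNA (1.05, 0.870 to 1.27) and total RNA (1.23, 0.762 to 2.01) include 1, and below 1 in both C2C12 measurements, up to 0.766 in MT. The sides depend on the control library and the scale. Against NT at 0 h, Eif2ak2 in MB was lower at RC4 (7.18 against 12.7 CPM), and so was Eif2s1 in newly made RNA (63.6 against 85.4 CPM) and in Ft RNA (110.6 against 115.4 CPM). With the library total as the scale, Eif2s1 was at 0.837 in RNA-seq, 0.825 in newly made RNA and 1.04 in Ft RNA. The difference between the lines was not tested, since each measurement has 1 library a condition. The C2C12 libraries were cytoplasmic and the NIH3T3 libraries were not, so cell line and RNA fraction cannot be told apart.

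Eif2ak1 at RC4 was at 0.747 (0.563 to 0.988) in MB and 1.37 (1.15 to 1.63) in MT, with counting intervals on opposite sides of 1. This difference was not tested either.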

How the results depend on the processing

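No call of the 7 genes reversed its direction, while among single-library ratios whose interval left out 1, those of Eif2s1 and Eif2ak1 in RNA-seq at RC4 turned from 1.40 and 1.23 to 0.837 and 0.739 with the library total. The rise of Ppp1r15a over 7 pairs and in MT and the fall of Eif2ak4 in MT kept their side of the threshold under every alternative run. Counts of genes called moved more. For AS vs. NT in total RNA the replicate block gave 6 in place of 0. Over 7 pairs, 186 genes were called, 490 with DESeq2, 6 without the replicate block and 88 to 165 leaving out a pair, with Ppp1r15a among them throughout. At RC4, 66 were called, 349 with DESeq2 and 0 to 314 leaving out a pair, with 0 or 1 of the 7 genes. Dropping the block at RC4 leaves the same model, as each source has 1 pair. For TIA1 in NT, 1781 genes were called, 308 and 0 of the 7 genes without the block, and 846 to 1678 with 0 to 2 of the 7 leaving out a culture. In AS, 1668 were called, 57 and 0 of the 7 without the block, and 274 to 2289 with 0 to 2 of the 7 leaving out a culture. The test of TIA1 binding in AS against NT called 1 gene, 4 with the library total, 8 without the filter, 24 with DESeq2, 3 with last-exon PASs alone, 0 without the block and 0 to 22 leaving out a culture. In MT vs. MB 2 to 4 of the 7 were called leaving out a library. The cause of these differences was not tested. Replicate numbers of MB and MT did not pair the libraries (r = 0.0804), and the block changed no call of the 7 there. Taking the library total in place of TMM moved the median of all genes by -0.24 (log2) in the RC4 fit, -0.13 in MT vs. MB, 0.11 in TIA1 NT, -0.43 in Ft and -0.35 in 4sU at RC4, and -0.12 in 4sU at AS. The median ratio moved it by -0.13 in TIA1 AS and -0.11 in TIA1 AS against NT. Depth limits Eif2ak3 in 3′READS and Eif2ak4 in C2C12 cytoplasm (at most 16 reads a library).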
